A study of Mus musculus with 12 samples.

Results

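The proteasome genes of the liver were followed in 12 mice, 6 without *Yap1* in the liver epithelium (KO) and 6 wild type (WT). Genes were taken by symbol: every row of the deposited expression table whose name starts with Psm, one of the letters a to e and a number, and whose mean was at least 0.5 TPM over the 12 livers. TPM is a share of a library's transcripts, corrected for transcript length and scaled to a fixed sum. The rule found 43 of the 25676 genes in the table, and 12278 genes in all reached that mean. Just inside the limit were *Psma8*, a core subunit restricted to the testis, at a mean of 0.579 TPM and *Psmc3ip* at 0.585 TPM. *Psmc3ip* encodes a partner of DNA recombination proteins and is no proteasome subunit, although its symbol matches. Just outside it was *Psme2b* at 0.458 TPM, and the thymus subunit *Psmb11* was listed at 0 in every library. The other 41 genes had means of 12.9 to 195 TPM.

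The mice were on the C57BL/6 background and 3 to 4 months old. In the KO, Cre recombinase under *Foxa3* control removed *Yap1*; this driver acts in cells of the foregut lining that later form hepatocytes and bile ducts, so blood-derived, stellate and endothelial cells should keep the gene. WT mice are called healthy in the labels, and whether they carried floxed alleles or Cre is not given in the sources used here. There were 3 males and 3 females of each genotype, with 1 library of whole liver per mouse. Whole tissue was sequenced, so fewer cells of a type and less RNA per cell cannot be told apart.

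The proteasome degrades proteins tagged with ubiquitin. Its core is a barrel of outer alpha and inner beta rings, and *Psmb5*, *Psmb6* and *Psmb7* encode the beta subunits that cut peptides. Interferon-gamma induces *Psmb8*, *Psmb9* and *Psmb10*, which take the places of *Psmb5*, *Psmb6* and *Psmb7* in new cores; this immunoproteasome is abundant in cells of the blood lineage and makes peptides for presentation on class I molecules. The regulatory particle caps the barrel: its base holds ATPases (the *Psmc* genes) that unfold the substrate, and its lid, made with other non-ATPase subunits (most *Psmd* genes), removes ubiquitin. *Psme* genes encode alternative caps.

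The upstream sequences of the genes the results turn on are shown first. RefSeq promoter windows (GRCm38.p6, 250 bases before to 50 after the start site) were matched for 36 of the 43 genes. Printed is the stretch of the upstream bases that no annotated exon covers, or, for *Psmb8* and *Psmb9*, whose windows lie inside exons of longer transcript models, 30 bases around a match. Each is written 5′ to 3′ on the gene's strand, with capitals at matches to any of 5 motifs searched on both strands.
Psmb5 (chr14:54618023-54618245, minus strand): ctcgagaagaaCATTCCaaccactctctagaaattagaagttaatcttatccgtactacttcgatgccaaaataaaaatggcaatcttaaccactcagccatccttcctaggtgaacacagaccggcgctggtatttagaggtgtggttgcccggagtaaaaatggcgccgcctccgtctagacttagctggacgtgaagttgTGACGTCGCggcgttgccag
Psmb6 (chr11:70525107-70525356, plus strand): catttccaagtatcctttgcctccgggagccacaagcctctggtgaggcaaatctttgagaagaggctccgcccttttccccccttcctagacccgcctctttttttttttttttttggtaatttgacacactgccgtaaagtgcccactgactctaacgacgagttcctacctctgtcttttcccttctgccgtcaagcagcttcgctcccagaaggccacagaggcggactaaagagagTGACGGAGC
Psmb8 (chr17:34198088-34198117, plus strand): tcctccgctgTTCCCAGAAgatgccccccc
Psmb9 (chr17:34187331-34187360, minus strand): cctgcaccgcgcgcagccgctgATTGGaaa
Psmd8 (chr7:29180702-29180923, minus strand): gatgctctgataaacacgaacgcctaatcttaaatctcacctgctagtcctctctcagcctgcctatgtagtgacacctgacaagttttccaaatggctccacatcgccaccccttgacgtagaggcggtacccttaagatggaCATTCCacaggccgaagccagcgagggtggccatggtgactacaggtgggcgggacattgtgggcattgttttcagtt
Psmd10 (chrX:140956729-140956906, minus strand): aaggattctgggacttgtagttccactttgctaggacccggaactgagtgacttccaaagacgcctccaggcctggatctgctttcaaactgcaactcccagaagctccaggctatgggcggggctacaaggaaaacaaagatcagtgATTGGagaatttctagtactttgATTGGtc

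The constitutive pair *Psmb5* and *Psmb6* each held TGACNNNGC, the letters of the antioxidant response element that NRF1 and NRF2 bind, at 47 and 9 bases before the start site. These letters were in 6 of the 36 matched genes and in 13.99% of all 27025 genes with a window. The immune gene *Psmb8* held TTCNNNGAA, the letters of a STAT site, found in 2 of 36 and in 9.55% of all genes. *Psmb9* and *Psmd10* held CCAAT, which was in 14 of 36 and in 41.1% of all. *Psmd8* and *Psmb5* held GGAATG, the letters of a TEAD site, found in 4 of 36 (the others were *Psmd9* and *Psme2*) and in 16.6% of all genes. The interferon-stimulated response element, searched as 2 copies of GAAA with 2 bases of any kind between them, was in *Psmb3*, *Psmd4*, *Psmd9* and *Psme1*, and in 3.99% of all genes, and *Psmb10* held none of the 5. One pair of matches overlapped, both of them CCAAT, in *Psmd14*. These are letter matches in a short window, not binding sites. *Psmb9* and *Tap1*, which encodes a subunit of the class I peptide transporter, lie head to head, with RefSeq start sites 226 bases apart and annotated exons that overlap on opposite strands; whether reads were counted by strand is not given in the sources used here.

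*Yap1* was the check on the genotype labels. Its level was 23.0 to 34.9 TPM in WT and 0.994 to 3.11 TPM in KO, with no overlap (log2 difference -3.36, exact permutation p = 0.005, two-sided, the smallest this design allows). *Alb*, the main hepatocyte transcript, was at 42088 TPM or more in every library. Scaling matters for all that follows. Over all tested genes the median KO minus WT difference was 0.35 on the log2(TPM + 1) scale, and rescaling each library by the median ratio of its genes to their means brought it to -0.03. The rescaling factors were 0.728 to 0.947 in WT and 1.085 to 1.332 in KO, without overlap. Counts of calls are therefore given as deposited and after rescaling, and so are most differences; levels in TPM are as deposited. In 3 libraries, WT male replicate 2, KO male replicate 3 and KO female replicate 2, long transcripts were relatively high and short ones low: tested genes under 1000 bases deviated by 0.45, 0.87 and 0.31 log2 units less than genes over 3000 bases, while in the other 9 they deviated by 0.03 to 0.37 more. WT male replicate 2 is also the 1 library whose label carries a library number of another series than the other 11; what that number stands for is not given in the sources used here.

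As a group the proteasome genes made up 0.268 to 0.3532% of all transcripts in WT and 0.3526 to 0.416% in KO, and the ranges overlapped slightly. The lowest WT value was that of WT male replicate 2, and the next was 0.333%. As deposited, 13 of the 43 passed the test as higher in KO and 0 as lower (limma on all 12 libraries with sex as a covariate, Benjamini-Hochberg adjusted over all 12278 genes, threshold 0.05). That is 30.2% of them, against 50.1% of all genes tested called higher and 4.82% called lower. Their median difference was 0.19, and 34 of the 43 lay below the all-gene median. After rescaling, 2 were called higher and 13 lower, where 21.3% of all genes were called higher and 18% lower, and the median was -0.24. No gene passed in opposite directions on the 2 scales, and 17 passed on neither. *Psmd8* and *Psmd10* were the 2 called higher on both. The 6 KO values lay above all 6 WT values for 9 of the 43 as deposited and below them for 0, against 28.7% and 1.88% of all genes tested. After rescaling they lay above for 1 (*Psmd8*) and below for 5, against 11% and 7.96%.

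**Figure D1:**
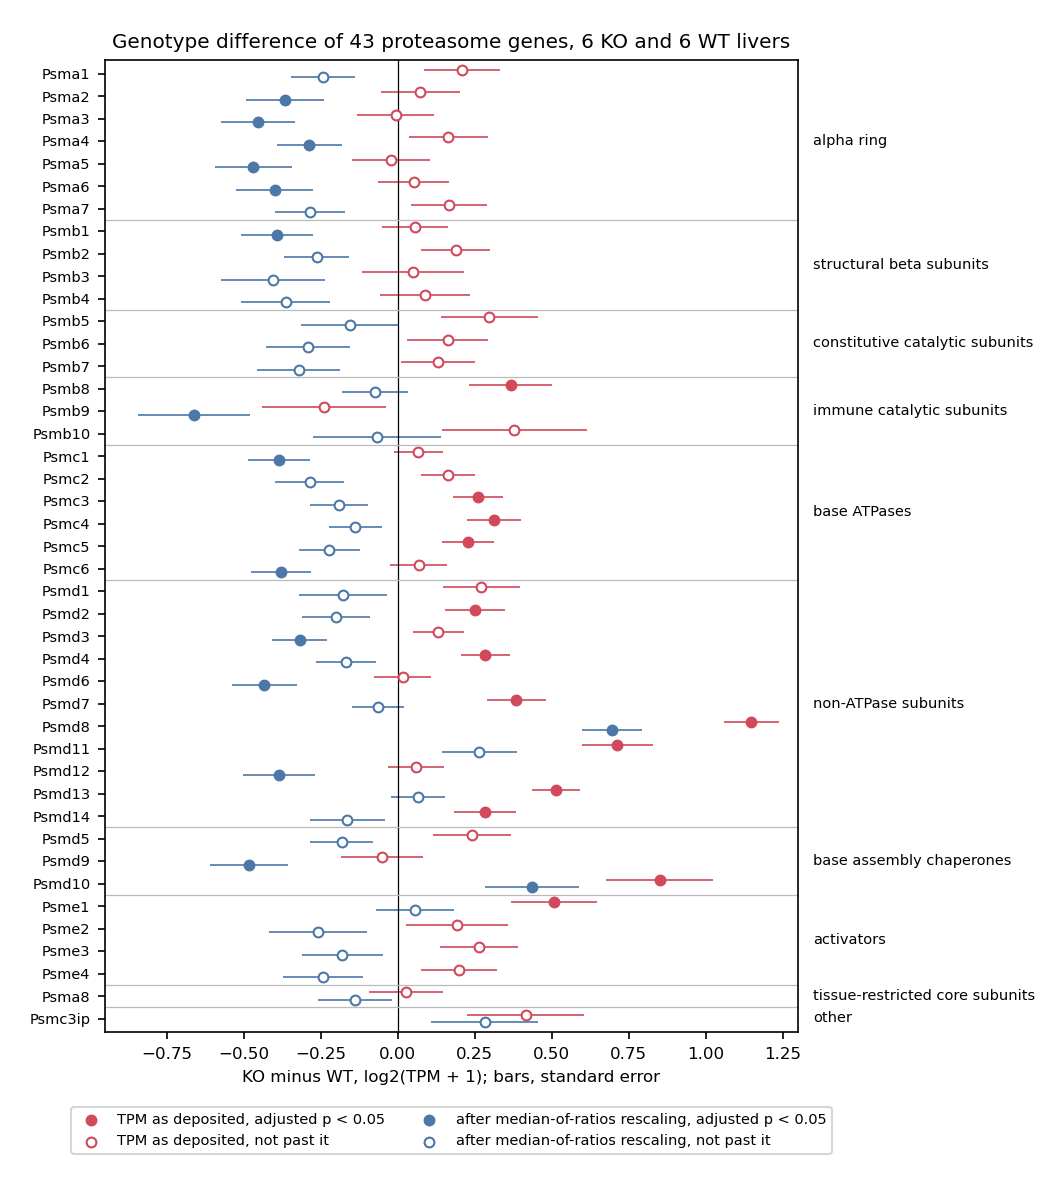
Each of the 43 genes by role, with the KO minus WT difference in log2(TPM + 1) on the horizontal axis as deposited (red) and after rescaling (blue); bars are standard errors and filled points passed the adjusted threshold. *Psmd8* and *Psmd10* are filled on the right on both scales, and the filled blue points on the left include 5 of the 7 alpha subunits.

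*Psmd8*, a lid subunit (chr7:29174188-29180701, minus strand, GRCm38, GENCODE M21), had the largest KO minus WT difference in log2(TPM + 1) of the 43 genes on both scales; as a ratio of mean TPM the scarce *Psmc3ip* was above it, at 2.59. Its level was 76.2, 66.5 and 73.3 TPM in the WT males, 72.0, 69.8 and 82.9 TPM in the WT females, 162, 148 and 175 TPM in the KO males and 152, 168 and 180 TPM in the KO females. All KO livers were above all WT livers, in both sexes. The mean was 2.23 times as high in KO (log2 difference 1.15 ± 0.09 SE, adjusted p = 2.9e-07), and 1.63 times after rescaling (0.70 ± 0.10, adjusted p = 9.8e-05). It passed as higher in males (1.15, adjusted p = 2.3e-05) and in females (1.14, adjusted p = 3.1e-05) taken alone, and after rescaling too (0.59 and 0.80). No annotated exon of another gene overlaps it. In the authors' deposited table its log2 fold change was 0.61 with an FDR of 0.01.

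*Psmd10* encodes gankyrin, a chaperone of base assembly that also binds the retinoblastoma protein and is known as an oncoprotein of liver cancer (chrX:140948429-140956728, minus strand). It was one of the least abundant of the group: 9.43, 4.55 and 9.33 TPM in the WT males, 10.7, 10.2 and 9.72 TPM in the WT females, 17.7, 17.1 and 14.8 TPM in the KO males and 22.4, 14.97 and 13.6 TPM in the KO females. KO and WT did not overlap, and WT male replicate 2 stood below the rest. The difference was 0.85 ± 0.17 SE (adjusted p = 0.0011), and 0.44 ± 0.15 after rescaling (adjusted p = 0.038). After rescaling and without WT male replicate 2 it was 0.31 ± 0.12 and no longer passed (adjusted p = 0.059). The authors' deposited table lists a log2 fold change of 0.65 with an FDR of 0.02. The other chaperones of base assembly, *Psmd5* and *Psmd9*, did not pass as deposited (0.24 and -0.05), and *Psmd9* passed as lower after rescaling (-0.48).

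The remaining non-ATPase subunits divided. *Psmd11*, a lid subunit that stabilises the joined proteasome, had 40.1 to 58.2 TPM in WT and 68.8 to 103 TPM in KO. The lid subunit *Psmd13* had 42.8 to 46.4 TPM in WT and 58.5 to 69.7 TPM in KO. Neither overlapped between the genotypes as deposited (0.71 ± 0.11, adjusted p = 0.00018, and 0.51 ± 0.08, adjusted p = 0.00011), and neither passed after rescaling (0.27 and 0.07). *Psmd13* shares exon sequence on the opposite strand with *Sirt3*. *Psmd7*, *Psmd4* (a ubiquitin receptor), *Psmd14* (the deubiquitinase of the lid) and *Psmd2* also passed as deposited, by 0.39, 0.28, 0.28 and 0.25. After rescaling these 4 stood at -0.06, -0.17, -0.16 and -0.20 and did not pass. As deposited, *Psmd14* and *Psmd2* kept their calls in 6 and 5 of the 12 fits that leave out 1 library. *Psmd6*, *Psmd12* and *Psmd3*, all lid subunits, showed 0.02, 0.06 and 0.13 as deposited and passed as lower after rescaling, by -0.43, -0.38 and -0.32. *Psmd1* passed on neither scale (0.27 and -0.18).

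Of the 6 base ATPases, *Psmc3*, *Psmc4* and *Psmc5* passed as higher as deposited (0.26, 0.31 and 0.23) and *Psmc1* and *Psmc6* as lower after rescaling (-0.38 each), while *Psmc2* passed on neither (0.16 and -0.29). Summed over the 6, levels were 475 to 524 TPM in WT and 551 to 596 TPM in KO. *Psmc1* varied least of all 43 genes as deposited, with a coefficient of variation of 5.33% over the 12 livers; after rescaling it had 18.6%, and *Psmd7* varied least, with 8.34%.

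In the core particle as deposited, none of the 7 alpha subunits *Psma1* to *Psma7*, the 4 structural beta subunits *Psmb1* to *Psmb4* or the 3 constitutive catalytic subunits passed, and their values lay between -0.02 and 0.30. After rescaling *Psma2* to *Psma6* and *Psmb1* passed as lower, by 0.29 to 0.47 in size. The sum of these 14 core genes was 1155 to 1770 TPM in WT and 1393 to 2058 TPM in KO, and the groups overlapped.

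A ratio of TPM within 1 liver does not depend on how its library was scaled. Each gene was therefore also set against the median of the 14 core genes of the same liver, in log2(TPM + 1), where the added 1 leaves a small dependence for scarce genes, as a description with no test. *Psmd8* stood 0.37 to 0.82 log2 units below the core median in WT and 0.04 to 0.63 above it in KO. *Psmd10* stood 3.45 to 3.98 below in WT and 2.66 to 3.23 below in KO. These 2 were the only ones of the 43 whose KO and WT values did not overlap on this measure, both with KO above WT; of all genes tested, 13.7% had KO above WT in this way and 2.94% below. Without the added 1, again only these 2 did not overlap, with *Psmd10* at -4.25 to -3.57 against the core median in WT and -3.32 to -2.71 in KO. *Psmd11* and *Psmd13* overlapped: WT male replicate 2 lay within the KO range for both, and WT male replicate 1 also for *Psmd11*.

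**Figure D2:**
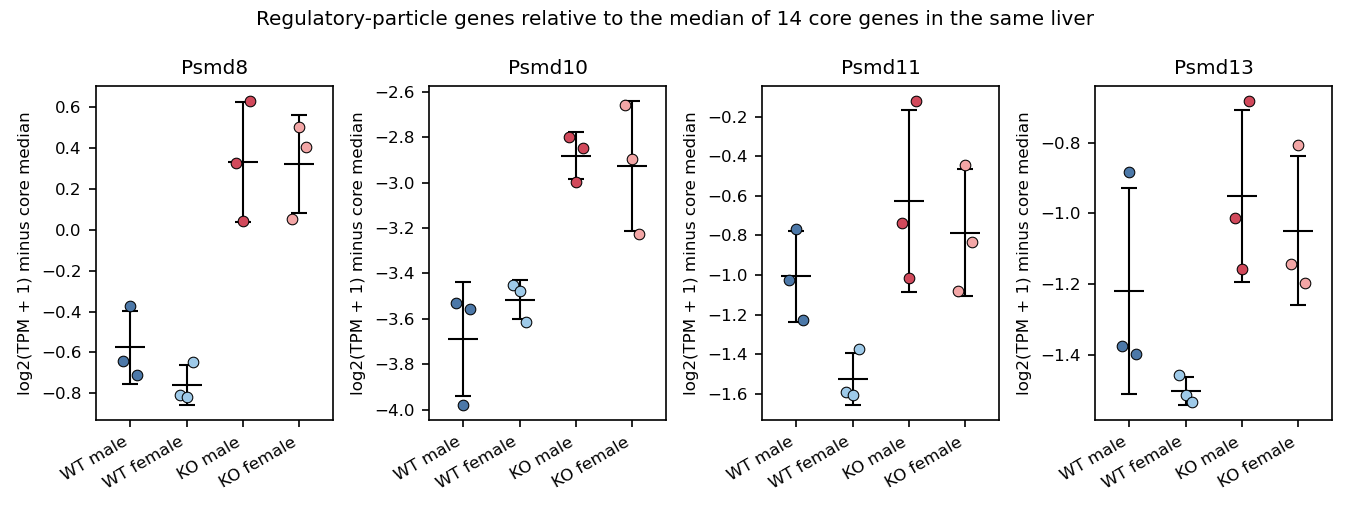
Level of 4 regulatory-particle genes minus the median of the 14 constitutive core genes in the same liver, in log2(TPM + 1), by group; points are livers, lines the mean and bars the SD of 3. For *Psmd8* and *Psmd10* all 6 KO livers lie above all 6 WT livers, and for *Psmd11* and *Psmd13* the ranges overlap.

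The constitutive catalytic subunits were among the most abundant proteasome transcripts and the immune ones were below them in every liver. *Psmb6*, *Psmb7* and *Psmb5* had means of 195, 162 and 160 TPM over all livers. *Psmb10*, *Psmb8* and *Psmb9* had means of 58.0, 35.4 and 15.6 TPM. *Psmb8* (chr17:34197721-34201454, plus strand) was at 25.6, 20.2 and 24.3 TPM in the WT males, 39.1, 35.2 and 43.7 TPM in the WT females, 34.3, 41.1 and 38.8 TPM in the KO males and 47.5, 38.3 and 36.9 TPM in the KO females. The WT males were the low group, and the other 3 groups overlapped. *Psmb10* (chr8:105935735-105938444, minus strand) was at 33.9, 18.0 and 45.5 TPM in the WT males, 73.5, 75.3 and 72.9 TPM in the WT females, 62.9, 64.4 and 49.9 TPM in the KO males and 81.8, 54.7 and 62.9 TPM in the KO females. Again all WT males lay below every other liver. Both statements hold as deposited. After rescaling the WT males overlapped with the KO males for *Psmb8*, and with the KO males and the KO females for *Psmb10*. The WT females stayed above the WT males for both genes. *Psmb9* (chr17:34181987-34187764, minus strand) was at 17.004, 7.17 and 14.4 TPM in the WT males, 21.1, 18.4 and 24.8 TPM in the WT females, 10.4, 14.9 and 9.59 TPM in the KO males and 21.9, 13.8 and 13.2 TPM in the KO females. Here the WT females were above the WT males, and the KO values spread over both.

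**Figure D3:**
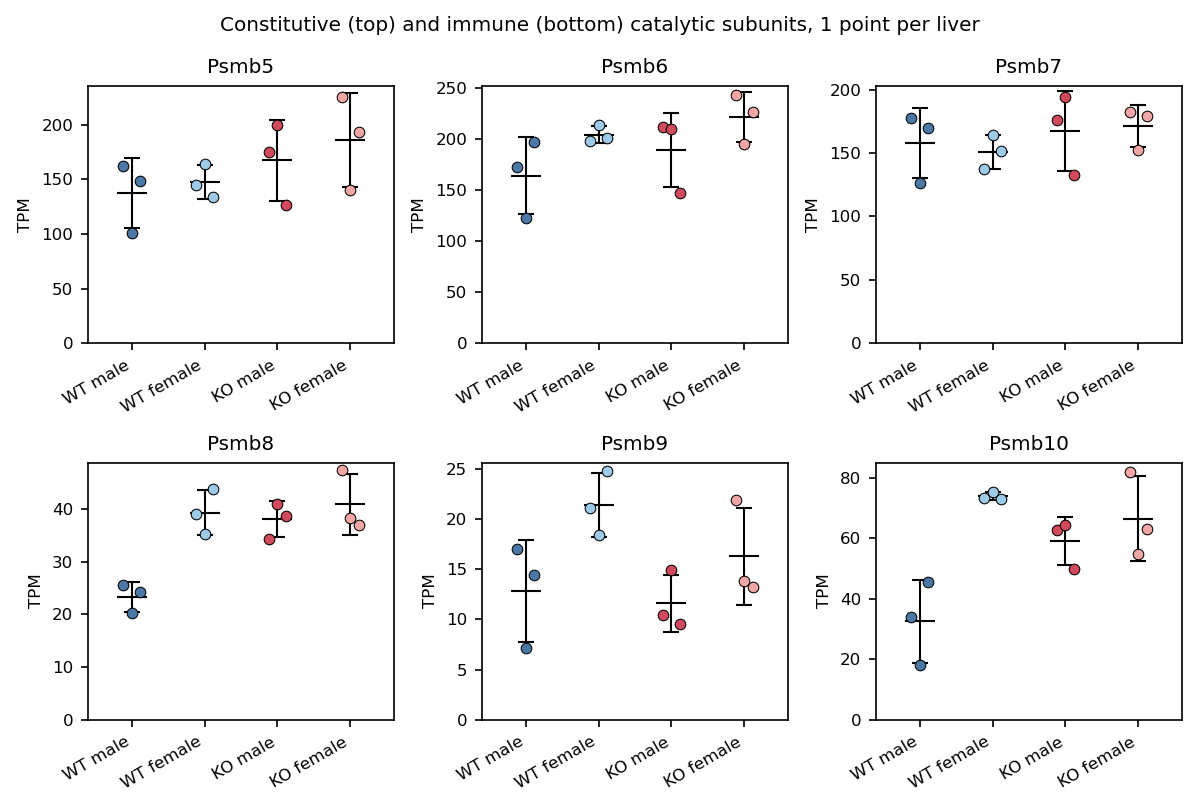
TPM as deposited of the constitutive catalytic genes *Psmb5*, *Psmb6* and *Psmb7* (top) and their immune counterparts *Psmb8*, *Psmb9* and *Psmb10* (bottom), by group; points are livers, lines the mean and bars the SD of 3. *Psmb8* and *Psmb10* are lowest in the 3 WT males.

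In WT livers, *Psmb10* was lower in males than in females by 1.26 ± 0.26 SE in log2 units (adjusted p = 0.016) and *Psmb8* by 0.73 ± 0.15 (adjusted p = 0.014; limma over all genes). After rescaling the differences were -1.05 and -0.52 (adjusted p = 0.032 and 0.047). *Psmb9* had -0.76 ± 0.28 and did not pass (adjusted p = 0.12). *Psmb8* and *Psmb10* were the only proteasome genes that passed between the sexes in WT as deposited, 2 of 43 lower in males and 0 higher, where 4.6% of all genes were called lower and 1.14% higher. After rescaling *Psme4* was also called, higher in males by 0.69, where 2.02% of all genes were called higher and 2.3% lower; without WT male replicate 2 it no longer passed (0.56, adjusted p = 0.18). The 3 WT females were above all 3 WT males for 13 of the 43 genes as deposited, the 3 immune subunits among them, and below for 5, against 27.5% and 5.99% of all genes. After rescaling the balance turned, with 6 above, *Psmb8* and *Psmb10* among them, and 13 below, against 14.8% and 13.6% of all genes, and *Psmb9* overlapped. Both calls rest on few animals. *Psmb8* no longer passed without WT female replicate 1, WT female replicate 3 or WT male replicate 2 (adjusted p = 0.055, 0.057 and 0.064), nor *Psmb10* without WT female replicate 1 or 2 (adjusted p = 0.058 and 0.063). After rescaling and without WT male replicate 2, neither passed (-0.49 and -0.75, adjusted p = 0.15 and 0.098).

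In KO livers no proteasome gene passed between males and females, as deposited or rescaled, and 0 of 43 had an unadjusted p under 0.05 in limma, beside 5.33% of all genes as deposited and 5.6% rescaled; 0.057% of all genes were called higher and 0.0244% lower as deposited, and 0.0652% and 0.0244% after rescaling. *Psmb10* had -0.16 ± 0.26 and *Psmb8* -0.10 ± 0.15. Whether the genotype effect itself differed between the sexes was tested as an interaction, the male KO minus WT difference minus the female one. No proteasome gene passed it with limma on either scale, where 0.586% of all genes were called higher and 0.326% lower as deposited, and 0.448% and 0.383% after rescaling. *Psmb10* and *Psmb8* were the 2 of 43 with an unadjusted p under 0.05: their interactions were 1.10 ± 0.37 and 0.63 ± 0.21 (adjusted p = 0.37 and 0.36). Of all genes, 8.85% had such a p as deposited. After rescaling the interactions were 0.88 and 0.42, again the 2 of 43 with an unadjusted p under 0.05, beside 7.59% of all genes. Without WT male replicate 2 the rescaled interactions were 0.59 and 0.39, and neither had such a p in limma (unadjusted p = 0.053 and 0.081). The male effects behind these were 0.93 and 0.68, which passed as deposited and not after rescaling (0.38 and 0.14), and the female effects were -0.17 and 0.05 as deposited and -0.51 and -0.28 after rescaling, none of which passed.

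The genotype comparison of the immune subunits over both sexes gave 0.37 ± 0.13 for *Psmb8* (adjusted p = 0.033), 0.38 ± 0.24 for *Psmb10* (adjusted p = 0.19) and -0.24 ± 0.20 for *Psmb9* (adjusted p = 0.33) as deposited. After rescaling the values were -0.07, -0.07 and -0.66, and only *Psmb9* passed, as lower (adjusted p = 0.012). As deposited, *Psmb8* no longer passed in 8 of the 12 fits that leave out 1 library (adjusted p = 0.053 to 0.078), and *Psmb9* passed as lower without WT male replicate 2 (-0.41, adjusted p = 0.041).

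Together the immune subunits held 12.98, 11.48 and 14.05% of the summed TPM of the 6 catalytic genes in the WT males, 12.8% ± 1.29 (SD, n = 3). The share was 21.8, 19.2 and 22.5% in the WT females (21.2% ± 1.73), 16.1, 16.6 and 19.5% in the KO males (17.4% ± 1.82) and 18.9, 18.0 and 15.9% in the KO females (17.6% ± 1.53). WT males lay below all other livers, and the KO males and KO females overlapped. The mean over all KO was 17.5% ± 1.51 (SD, n = 6), beside 17.0% ± 4.76 (SD, n = 6) over all WT.

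**Figure D4:**
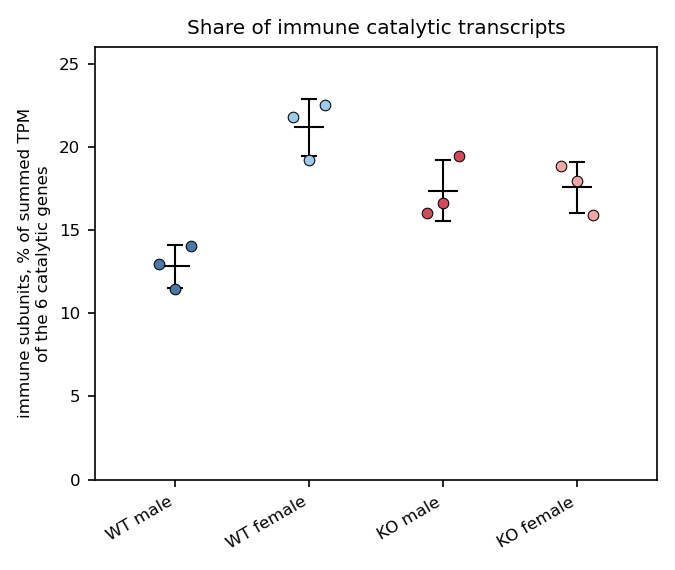
Share of *Psmb8*, *Psmb9* and *Psmb10* in the summed TPM of the 6 catalytic genes, in percent, by group; points are livers, lines the mean and bars the SD of 3. The WT sexes are apart, at 11.5 to 14.05% and 19.2 to 22.5%, and all 6 KO livers lie between 15.9 and 19.5%.

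Each immune subunit was set against the constitutive one whose place it takes, as a log2 ratio within the liver. *Psmb10* was 19.1, 14.2 and 26.7% of *Psmb7* in the WT males, 53.5, 45.9 and 48.0% in the WT females, 35.6, 33.2 and 37.6% in the KO males and 44.9, 35.9 and 35.1% in the KO females. All KO males were above all WT males and all KO females below all WT females. The log2 effect was 0.87 in males and -0.35 in females, 0.26 over both (exact permutation p = 0.345, adjusted 0.52 over the 6 ratio tests, two-sided). The difference between the sexes was 1.22 (exact permutation p = 0.08, adjusted 0.2), so it did not pass. For this difference sex labels were shuffled within each genotype, so its p is exact only where neither genotype differs between the sexes. *Psmb8* was 15.7 to 19.96% of *Psmb5* in the WT males, 21.5 to 32.7% in the WT females, 19.6 to 30.6% in the KO males and 19.1 to 27.4% in the KO females. *Psmb8* has the longer transcript (1628 bases, against 899 in *Psmb5*), and in the WT males, KO males and KO females the highest ratio was in the library where long transcripts were relatively high; the part of length in this ratio was not tested. Its genotype effect was 0.08 (exact permutation p = 0.67, adjusted 0.67) and its difference between the sexes 0.68 (exact permutation p = 0.1, adjusted 0.2). *Psmb9* was 5.85 to 9.84% of *Psmb6* in the WT males, 8.61 to 12.3% in the WT females, 4.93 to 7.11% in the KO males and 5.84 to 8.999% in the KO females. Its effect was -0.41 (exact permutation p = 0.05, adjusted 0.2), of the same sign in males (-0.30) and females (-0.53). *Psmb9* also has the longer transcript of its pair (1352 bases, against 798 in *Psmb6*). Here the ratio was lowest in WT male replicate 2 among the WT males. In KO male replicate 3 and KO female replicate 2 it was the middle value of the group. None of the 6 tests passed after adjustment.

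Among the activators, *Psme1*, which with *Psme2* forms the interferon-inducible cap, had 109, 73.1 and 129 TPM in the WT males, 160.5, 152 and 142 TPM in the WT females, 165, 189.8 and 142 TPM in the KO males and 206, 173 and 188 TPM in the KO females. The WT males were again the lowest livers as deposited, and after rescaling they overlapped with the KO males. It passed as deposited (0.51 ± 0.14 SE, adjusted p = 0.0079) and not after rescaling (0.06). *Psme2* passed on neither scale (0.19 and -0.26), and nor did *Psme3* of the nuclear cap (0.26 and -0.18) or *Psme4* (0.20 and -0.24). *Psme1* shares exon sequence with *Emc9* on the opposite strand.

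Within males, 9 of the 43 genes passed as higher in KO (*Psmb8*, *Psmb10*, *Psmc4*, *Psmd7*, *Psmd8*, *Psmd10*, *Psmd11*, *Psmd13* and *Psme1*) and 0 as lower as deposited, where 43.3% of all genes were called higher and 2.81% lower. Within females, 3 passed as higher (*Psmd8*, *Psmd11* and *Psmd13*) and 0 as lower, against 29.1% and 4.68% of all genes. After rescaling the counts were 1 higher and 5 lower in males (14.1% and 9.84% of all genes) and 1 higher and 1 lower in females (15.4% and 10.6%); the higher one was *Psmd8* in both. The lower ones in males were *Psmc1*, *Psmc2*, *Psmd3*, *Psmd6* and *Psmd12*, and in females *Psmd9*. With all 12 livers the 2 scarce genes passed on neither scale over both sexes: *Psmc3ip* had 0.0600 to 0.625 TPM in WT and 0.0789 to 2.05 TPM in KO (0.42 as deposited and 0.28 rescaled), and *Psma8* had 0.278 to 1.05 and 0.417 to 0.762 TPM (0.03 and -0.14). *Psmc3ip* passed as higher as deposited without KO male replicate 2 (0.53, adjusted p = 0.025 in limma) and without KO female replicate 3 (0.51, adjusted p = 0.040).

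Genes around the proteasome were read from lists. Their counts stand beside 50.1% of all genes called higher and 4.82% lower as deposited, and 21.3% and 18% after rescaling. Of 10 assembly factors and regulators measured outside the symbol rule, 3 passed as higher as deposited, with 0 lower: the deubiquitinase *Uchl5* (0.40), the proteasome adaptor *Ecpas* (0.39) and the inhibitor *Psmf1* (0.27). After rescaling 0 passed as higher and 1 as lower, the core assembly factor *Pomp* (-0.44), named here after its value was seen. The median of the list was 0.22 as deposited and -0.21 after rescaling, beside 0.35 and -0.03 for all genes. *Nfe2l1*, the factor NRF1 that induces proteasome genes when activity falls, did not pass (0.20 and -0.24), while *Nfe2l2* passed on both scales (0.94 and 0.49). Of the 4 genes of the NRF1 list, 2 passed as higher and 0 as lower as deposited, and 1 each way after rescaling; the lower one was *Ddi2*, the protease that activates NRF1, at -0.19 as deposited and -0.63 after rescaling, named after its value was seen. Of 10 class I antigen processing genes, 5 passed as higher as deposited, near the share over all genes, led by *Tapbp* (0.95), *H2-D1* (0.69) and *Calr* (0.64); after rescaling *Tapbp* passed as higher and 2 as lower (*B2m* at -0.49 and *H2-K1* at -0.44, named after their values were seen). *Tap1* did not pass (0.12 and -0.31), and neither did *Nlrc5*, a regulator of class I genes (0.46 and 0.09). Of the 9 interferon signalling genes tested and reported here, 5 passed as higher and 0 as lower as deposited, led by *Ifngr1* (1.66), *Irf8* (1.36) and *Ifngr2* (1.32), and after rescaling these 3 passed as higher and 1 as lower (*Irf9* at -0.46, named after its value was seen), while *Irf1* passed on neither scale (0.20 and -0.21). Between the sexes in WT, *Irf1* was the 1 of these 9 genes that passed as deposited, lower in males (-1.20, adjusted p = 0.045 in limma). It did not pass after rescaling (-1.01, adjusted p = 0.064) or in 8 of the 12 fits as deposited that leave out 1 library (adjusted p up to 0.18).

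Markers of blood-derived cells, in which the immunoproteasome is abundant, were read beside the immune subunits. All 5 general leukocyte markers and all 6 macrophage markers passed as higher in KO on both scales. Of all genes, 50.1% were called higher in KO and 4.82% lower as deposited, and 21.3% and 18% after rescaling. The leukocyte markers summed to 13.98 to 17.7 TPM in WT males, 20.1 to 38.7 TPM in WT females, 61.2 to 100 TPM in KO males and 84.3 to 123 TPM in KO females. The macrophage markers summed to 60.9 to 64.9, 94.4 to 196, 301 to 526 and 340 to 614 TPM in the same order. Between the sexes in WT, 1 of the 5 leukocyte and 1 of the 6 macrophage markers passed as lower in males as deposited, and 0 of both after rescaling, where 4.6% and 2.3% of all genes were called lower. The WT sums of the sexes did not overlap as deposited; after rescaling the macrophage sums stayed apart (75.9 to 83.6 in males and 99.8 to 212 in females) and the leukocyte sums overlapped (16.4 to 21.4 and 21.3 to 41.9). Of the 5 markers of T and natural killer cells tested, 0 passed over both sexes on either scale. In males alone 0 passed as deposited and 2 passed as lower in KO after rescaling, where 9.84% of all genes were called lower. The 7 of that list summed to 1.72 to 7.36 TPM over all livers. None of these markers was at 0 in all libraries. In KO males, leukocyte and macrophage sums and the immune share were all above every WT male. In KO females, leukocyte and macrophage sums were above every WT liver on both scales while the immune share was below every WT female. The part of these cells in the levels of the immune subunits was not tested.

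Transcript length also moved with single libraries. Across the 43 genes, the deviation of a liver from the 12-liver mean correlated with the log2 length of the longest coding transcript at r = 0.62 in KO male replicate 3, 0.51 in WT male replicate 2 and 0.39 in KO female replicate 2, and at -0.51 to 0.11 in the other 9, as a description across genes of 1 library each. In WT male replicate 2 the 20 proteasome genes under 1500 bases had a median deviation of -0.64, and in KO male replicate 3 of -0.15, while the 9 genes of 2500 bases or more stood at -0.30 and 0.60. Most core genes are short: *Psmb6* has 798 bases and *Psmb5* 899, beside 1983 in *Psmd8* and 2848 in *Psmd11*. With each library's length slope as a covariate, added after seeing the data, 19 of the 43 passed as higher and 0 as lower as deposited, against 53.9% and 5.11% of all genes; *Psmd8* had 1.13 and *Psmd10* 0.93.

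**Figure D5:**
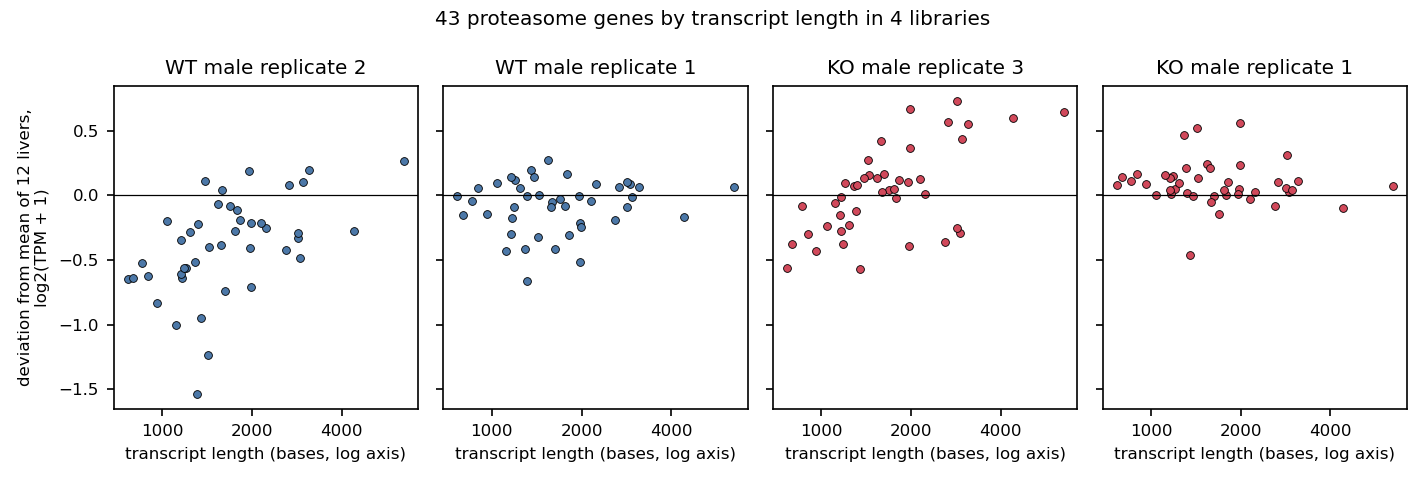
Deviation of each of the 43 genes from its mean over the 12 livers, in log2(TPM + 1), against transcript length on a log axis, in the 2 male libraries with the steepest slope and in the first replicate of the same groups. Points slope upward most in WT male replicate 2 and KO male replicate 3 (r = 0.51 and 0.62), while r is 0.11 and -0.09 in the first replicates.

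The authors' deposited table of KO against WT lists all 43 genes. In it 3 are higher at an FDR below 0.05 (*Psmd8*, *Psmd10* and *Psmc3ip*) and 5 lower (*Psmd6*, *Psmd12*, *Psmc1*, *Psmc6* and *Psme3*), where 14.9% of all genes listed are higher and 9.27% lower. Of the 43 genes, 36 have a negative change in the authors' deposited table, and the median is -0.25, beside 0.04 for all genes listed. For the catalytic subunits the authors' deposited table gives -0.08, -0.16 and -0.36 for *Psmb5*, *Psmb6* and *Psmb7* and 0.08, -0.43 and 0.35 for *Psmb8*, *Psmb9* and *Psmb10*, with FDR values of 0.12 or more.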

How the data were processed

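RNA from 12 whole livers was sequenced, 3 per genotype and sex, and each sample column of the table matched 1 sample. The deposited values are TPM per gene, per the file headers, with each library summing to 1000000, so they are shares and keep no read depth. The deposited table also holds the authors' fold change (a signed score), log2 fold change and FDR p-value of KO against WT, per the file headers, which were read for comparison only. The submitters' processing notes name edgeR and GRCm38 without a role; the aligner, counter and use of strand are not given in the sources used here.

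The genes and lists were chosen with earlier results of these data known. Groups came from the titles. TPM were transformed to log2(TPM + 1), which understates changes of low genes, and 12278 genes with a mean of at least 0.5 TPM were tested with limma 3.58.1 in R 4.3.3 (eBayes with an intensity trend, two-sided, Benjamini-Hochberg, threshold 0.05). Genotype was fitted with sex as a covariate; males, females, sex and interaction came from 1 model of the 4 group means. No source says more of replicates than that they are separate animals' samples, so p-values measure the spread between these samples. Ratios were tested by exact permutation of labels within sex (400 arrangements; sex labels within genotype for the difference between sexes). The fit and the permutation test were tested on simulated data. All 43 genes could be named, with *Yap1*, *Tap1*, *Nfe2l1*, *Irf1*, *Nlrc5* and up to 3 genes per list with the largest difference past the threshold. Lists covered assembly, NRF1, class I and interferon genes and markers of 10 cell types. Positions and transcript lengths are from GENCODE M21, and overlapping opposite genes cannot be told apart without strand. Alternatives were 2 rescalings, pseudocount 0.1, other filters, no trend, covariates and leaving out each library. *Paaf1* and *Tf*, of 2 lists, were not analysed here, and 1 named interferon gene is not reported here.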

Additional observations from a re-analysis of the deposited data

How the results depend on the processing

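No paired analysis was possible because the labels carry no replicate numbers that groups share; replicates were numbered in order of deposition. Counts of proteasome genes called in both sexes, 13 higher and 0 lower, became 2 and 13 after median-of-ratios rescaling, 8 higher and 0 lower without the 20 most abundant genes (43.3% and 5.66% of all genes), and 1 and 18 with rescaling and without WT male replicate 2 (21.9% and 18.8% of all genes; chosen after seeing the data). In males, 9 higher and 0 lower became 1 and 5 after rescaling, and 1 and 2 also without that library (12.8% and 8.05% of all genes). In females, 3 and 0 became 1 and 1, and 1 and 2 without it (16.2% and 11.5%). Between the sexes in WT, 0 higher and 2 lower became 1 and 2 after rescaling, and 0 and 0 also without that library (1.01% and 1.21%). The other alternatives run left these counts within 1.5 times of their value, except leaving out single libraries.

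Leaving out each library in turn gave 9 to 13 higher and 0 to 1 lower in both sexes (the 1 without WT male replicate 2, *Psmb9* at -0.41; 46.5 to 51.7% of all genes higher and 4.15 to 5.89% lower), 8 to 11 higher in males (33.4 to 43.3% of all genes), 3 to 5 in females (21.8 to 32.2%; the 5 without WT male replicate 2, where it was 29.6%), and 0 to 4 lower in WT males than WT females (0 without WT female replicate 1, 1 without WT female replicates 2 or 3 or WT male replicate 2, and 4 without WT male replicate 3; 1.67 to 10.8% of all genes, the highest share being that of the last fit). The genotype call of *Psmb8* was lost in 8 of 12 such fits (differences of 0.29 to 0.37 in these, adjusted p in limma up to 0.078). That of *Psmd2* was lost in 7 (up to 0.085), and those of *Psmc5* and *Psmd14* in 6 each (up to 0.084 and 0.074). All 12 fits kept *Psmd8* (1.12 to 1.18) and *Psmd10* (0.70 to 0.93).

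Rescaling turned the sign of 33 of the 43 genotype differences, all from positive to negative. Among them were 13 of the 20 genes followed through every alternative (the genes called as deposited, the 6 catalytic genes, *Psme2* and *Yap1*): *Psmb5* -0.15, *Psmb6* -0.29, *Psmb7* -0.32, *Psmb8* -0.074, *Psmb10* -0.066, *Psmc3* -0.19, *Psmc4* -0.14, *Psmc5* -0.22, *Psmd2* -0.20, *Psmd4* -0.17, *Psmd7* -0.064, *Psmd14* -0.16 and *Psme2* -0.26. Also without WT male replicate 2 these were -0.20, -0.34, -0.34, -0.11, -0.25, -0.15, -0.15, -0.19, -0.13, -0.14, -0.065, -0.14 and -0.34, and *Psme1* was -0.025. The construction shows why: KO libraries have larger rescaling factors.

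The ratio *Psmb9* to *Psmb6* passed unadjusted with a pseudocount of 1 (-0.40, exact permutation p = 0.045) and ranged from -0.50 to -0.32 without single libraries, passing unadjusted without WT male replicate 2, WT female replicate 2, KO male replicate 2 or KO female replicate 1 (exact permutation p = 0.025, 0.045, 0.04 and 0.035). *Psmb8* to *Psmb5* ranged from -0.022 (without KO male replicate 3) to 0.15, and *Psmb10* to *Psmb7* from 0.15 to 0.37. TPM keep no read depth, so counting error is unknown, and groups of 3 limit the precision.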

Other observations

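Markers of other cell types were read in the same way. Of all genes, 50.1% were called higher and 4.82% lower as deposited, and 21.3% and 18% after rescaling. Bile duct markers summed to 27.7 to 58.5 TPM in WT and 252 to 713 TPM in KO, with 2 of 4 tested higher and 1 lower on both scales. *Spp1* made up most of this sum, with a mean of 492 TPM in KO; *Sox9* also passed as higher (1.57 as deposited), *Epcam* passed as lower (-0.35), and *Krt19* did not pass (-0.12). Markers of stellate cells and fibroblasts summed to 52.6 to 155 TPM in WT and 141 to 348 TPM in KO, with 4 of 5 higher as deposited, and 2 higher and 1 lower after rescaling. Hepatocyte markers, 4 genes, summed to 73407 to 100978 TPM in WT and 54718 to 80197 TPM in KO, which overlapped, with 1 lower as deposited and 2 lower after rescaling. Of the neutrophil markers 2 of 3 tested passed as higher as deposited and 0 after rescaling, of the B cell markers 1 of 2 as deposited and 0 after rescaling, and 1 of 5 endothelial markers passed as higher and 1 as lower as deposited, and 0 and 1 after rescaling. The 1 dendritic cell marker tested passed as higher on both scales. Their part in the proteasome values was not tested.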
